A study of Homo sapiens with 9 samples.

Results

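The MEIS and PBX genes belong to the TALE class of homeobox genes, whose homeodomains carry a loop of extra amino acids. Expression of 9 of them (MEIS1, MEIS2, MEIS3, PBX2, PBX3, PBX4, PKNOX1, PKNOX2 and TGIF1) was read in human embryonic stem cells. Every probe set that the platform annotation gives to exactly 1 gene, that gene being one of the 9, was taken, whatever its values. This gave 23 probe sets among 54613 tested, and 9 genes among 19775 with a probe set of their own. The data are 9 Affymetrix arrays of the WA09 line, an established embryonic stem cell line, with 3 arrays for each condition. Retinoic acid (RA), a vitamin A derivative that binds nuclear receptors, was given at 1 µM for 2 days for the differentiating arrays, in a medium with no FGF added. Doxorubicin (DOX), which traps topoisomerase II on broken DNA, was given for 5 h for the damage arrays, at a dose not given in the sources used here. The pluripotent arrays hold untreated cells. RA and the lack of added FGF cannot be told apart. Cells were grown on mouse embryonic fibroblast feeders or without feeders, and which of these each array came from is not given in the sources used here.

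PBX proteins bind DNA weakly alone and pair with MEIS or PKNOX proteins (PKNOX1 and PKNOX2 are also called PREP1 and PREP2), which hold them in the nucleus. These pairs add a further contact beside HOX proteins and sharpen which sites a HOX protein binds. TGIF1 has a related homeodomain but is a repressor: it binds the same short core as MEIS and PKNOX, brings corepressors to SMAD2 and SMAD3, the effectors of NODAL signalling, and was isolated through a retinoid response element. In mouse embryonal carcinoma cells Meis2 is known as a gene that retinoic acid induces, and mouse Meis2 is needed in cranial neural crest.

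Values are log2 intensities after robust multi-array averaging (RMA), so a difference of 1 is a doubling of intensity. The brightness of a probe set depends on its probes, so levels are compared between conditions for 1 probe set and never between genes. Tests are limma's moderated tests on all 54613 probe sets with Benjamini-Hochberg adjustment over all of them. A probe set was called at an adjusted p under 0.05. A second fit, called gene level here, takes for each of the 19775 genes the probe set with the highest mean. The labels do not say that the 3 arrays of a condition are separate cultures, so the p-values measure the spread between these arrays only.

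A gene known to respond to each treatment was read as a check of the labels. CDKN1A, a p53 target that halts the cell cycle, was higher after DOX by 3.71 (adjusted p = 1.6e-08), and CYP26A1, the enzyme that degrades retinoic acid, was higher after RA by 1.64 (adjusted p = 2.2e-06). CDKN1A was also higher after RA, by a smaller 0.92 (adjusted p = 6.3e-04). CYP26A1 changed by 0.28 after DOX and was not called (adjusted p = 0.072). These limma values are at gene level. The mean level of 6 markers of pluripotent stem cells ran from 12.22 to 12.31 on the RA arrays, from 11.99 to 12.16 on the DOX arrays and from 12.17 to 12.27 on the pluripotent arrays. Of the 6, NANOG fell by 0.34 after RA (adjusted p = 0.036) and SOX2 fell by 0.46 after DOX (adjusted p = 0.0024), both at gene level. The array medians ran from 4.62 to 4.68, correlations between arrays of 1 condition ran from 0.996 to 0.998, and no 2 arrays held identical values.

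MEIS2 rose 18.1-fold after RA, the largest change among the 23 probe sets in any comparison. Its 1 probe set read 9.73, 9.68 and 9.40 on the RA arrays, 5.59, 5.96 and 5.96 on the DOX arrays and 5.57, 5.34 and 5.38 on the pluripotent arrays. The RA arrays lay far above all others, and the DOX arrays lay just above the pluripotent arrays without overlap. The change after RA was 4.18 (SE 0.13, 95% interval 3.90 to 4.45, adjusted p = 2.9e-08). It was the 9th highest of the 54613 probe sets, and 0.0146% of them had a larger absolute change. Set directly against DOX, the RA arrays were higher by 3.77, or 13.6-fold (95% interval 3.49 to 4.05, adjusted p = 1.6e-08), the 6th highest difference. Both calls held in all 16 alternatives that gave a value. In a culture read in bulk, more cells that express a gene and more RNA per cell cannot be told apart.

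After DOX, MEIS2 stood 1.33-fold higher, a log2 change of 0.41 (SE 0.13, 95% interval 0.13 to 0.68), with an adjusted p of 0.084 over probe sets and 0.049 at gene level. The gene-level call was lost in 11 of 17 alternatives. These included the fit with the replicate number as a block (adjusted p = 0.074) and the fits without DOX array 2 or 3 (0.34 and 0.35, adjusted p = 0.16 each), without RA array 1 or 2, and without pluripotent array 1, 2 or 3. Without DOX array 1, the lowest of its group, the change was 0.53 and the probe set was called (adjusted p = 0.026). The probe set has the suffix s_at, which marks probes that match several transcripts, so the isoform that moved cannot be named.

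**Figure D1:**
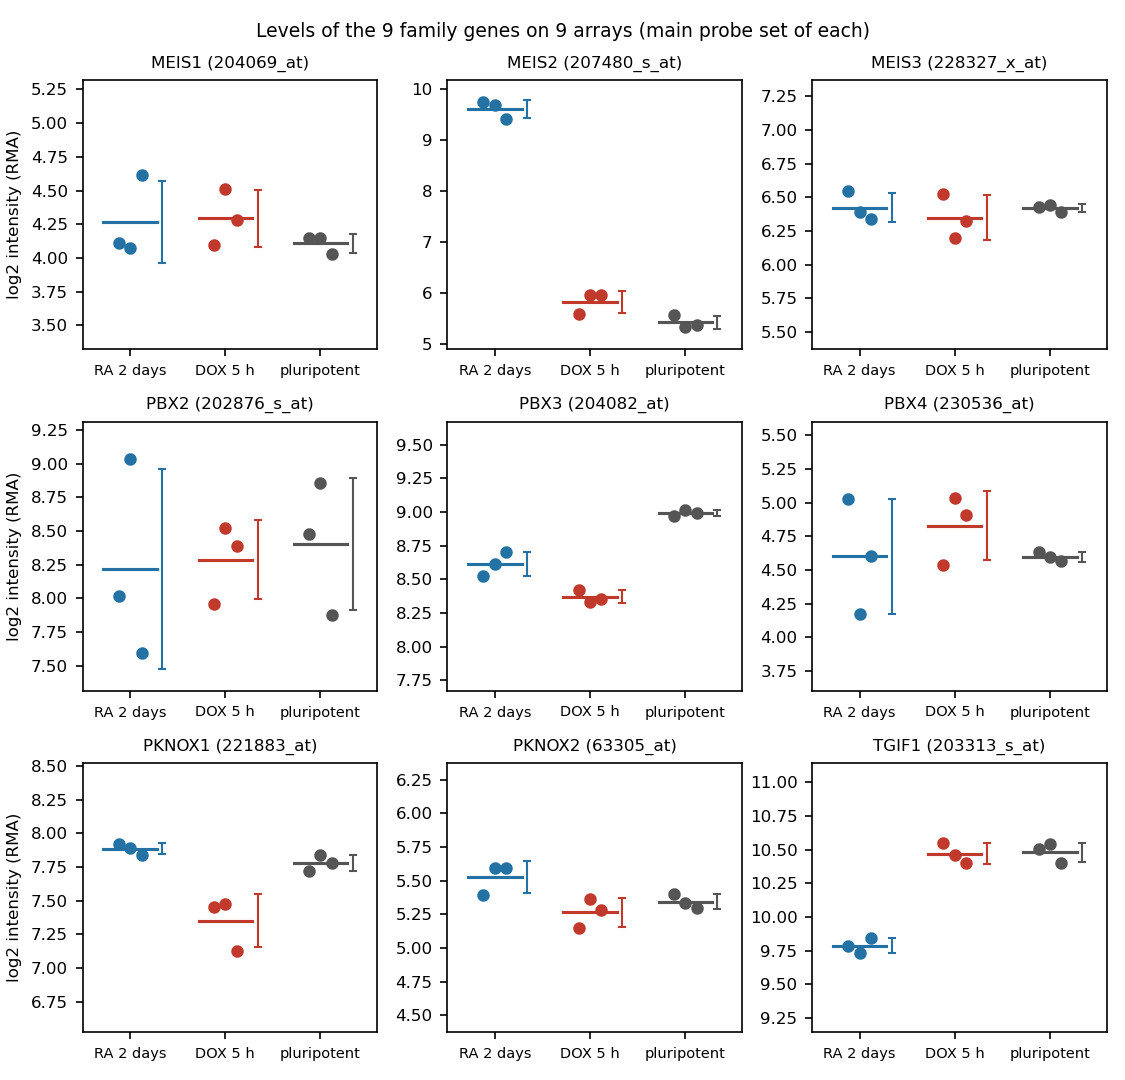
Log2 intensity (y axis, RMA) of the probe set with the highest mean for each of the 9 genes, in the 3 conditions on the x axis. Points are single arrays in the order 1 to 3, bars are means and the whiskers are 1 SD (n = 3). Each y axis spans at least 2 log2 units. The MEIS2 arrays after RA sit between 9.40 and 9.73 and all other MEIS2 arrays between 5.34 and 5.96. PBX3, PKNOX1 and TGIF1 show smaller separations, and the PBX2 and PBX4 arrays scatter within each condition.

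The upstream windows of MEIS2 are printed because it is the gene that moved most. The RefSeq windows used here (GRCh38.p14) cover 2 starts of it. Each window holds the 250 bases before a start, 5′ to 3′ on the minus strand. RefSeq places the outer end of the gene at 37101311, beyond both windows, so the bases before that end were not searched. Capitals mark TGACAG, the core bound by MEIS, PKNOX and TGIF proteins, or TGATNNAT, a composite core of PBX with HOX, read on either strand.
MEIS2 window 1, chr15:37099107-37099356: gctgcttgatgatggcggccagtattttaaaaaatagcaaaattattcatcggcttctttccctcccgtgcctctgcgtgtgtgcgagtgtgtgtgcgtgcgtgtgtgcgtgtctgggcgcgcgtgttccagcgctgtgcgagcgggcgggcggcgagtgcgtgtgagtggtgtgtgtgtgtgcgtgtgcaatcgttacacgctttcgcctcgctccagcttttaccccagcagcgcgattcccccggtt
MEIS2 window 2, chr15:37098697-37098946: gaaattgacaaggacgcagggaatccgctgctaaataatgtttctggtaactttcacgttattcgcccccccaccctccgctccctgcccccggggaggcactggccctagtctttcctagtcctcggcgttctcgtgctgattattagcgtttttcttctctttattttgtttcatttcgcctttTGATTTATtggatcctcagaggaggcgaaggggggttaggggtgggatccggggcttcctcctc
The first window held neither motif. The second held 1 TGATNNAT match, whose first base lies 64 bases before the start. Neither window held a direct repeat of retinoid half-sites (AGGTCA or a close variant) spaced by 5 or by 2 bases. A match is a description of the letters, and its absence says nothing about regulation from outside these windows.

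Markers of other cell types moved beside MEIS2. Of 6 neural crest markers, TFAP2A, a factor of neural crest and surface ectoderm, rose after RA (4.55, adjusted p = 1.3e-09) and FOXD3, an early crest and pluripotency factor, fell by 0.86 (adjusted p = 8.5e-04). The mean level of these 6 ran from 5.86 to 5.95 on the RA arrays and from 5.23 to 5.36 on the pluripotent arrays. SOX10, SNAI2, PAX3 and MSX1 were not called and changed by between -0.05 and 0.08, so TFAP2A alone made this rise. The means of SNAI2 and PAX3 over the 9 arrays were below the median of all values, and markers below that median are named for each list. Of 6 trophoblast and amnion markers, GATA3 (3.20) and ISL1 (0.80) rose. CDX2, KRT7, CGA and VTCN1 were not called and changed by between -0.29 and -0.02. The mean level of these 6 ran from 4.91 to 5.09 on the RA arrays and from 4.42 to 4.47 on the pluripotent arrays, a rise made mostly by GATA3. CDX2, CGA, ISL1 and VTCN1 stood below that median. Of 5 neuroectoderm markers ZIC1 rose and NES fell, with PAX6 and LHX2 below that median. Their mean level ran from 5.56 to 5.62 on the RA arrays and from 5.58 to 5.76 on the pluripotent arrays. Of 8 fibroblast markers COL1A1 (1.00) and COL3A1 (0.57) rose and THY1 fell by 0.37, while LUM, POSTN and FAP stood below that median. Their mean level ran from 6.19 to 6.30 on the RA arrays and from 6.10 to 6.16 on the pluripotent arrays. Of 6 mesoderm markers HAND1 rose (0.90), with HAND1, MIXL1 and FOXF1 below that median. Of 5 endoderm markers CXCR4 fell by 0.29, with SOX17, FOXA2 and GATA6 below that median. The blood markers PTPRC and SPI1 stood below that median. The part of these cell types in the changes of MEIS2, PBX3 and TGIF1 after RA was not tested.

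The 5 genes whose values over the 9 arrays lay closest to those of MEIS2 were SKAP2, TFAP2A, OLIG3, ANXA9 and HHEX. Closeness is the root-mean-square log2 difference after each gene is centred on its pluripotent mean. It was 0.294 for SKAP2, an adaptor protein of immune cells, 0.381 for TFAP2A and 0.436 for OLIG3, a transcription factor of the dorsal neural tube. It was 0.545 for ANXA9, an annexin, and 0.621 for HHEX, a homeobox gene of early endoderm and blood vessels. Across the 19775 genes, 10 lay within 1 of MEIS2, so few genes shared both the size and the direction of its change. SKAP2 averaged 9.19 after RA, 5.44 after DOX and 5.32 in pluripotent cells. TFAP2A averaged 9.33 after RA, 5.63 after DOX and 4.78 in pluripotent cells. These genes were picked for their likeness, so their values are a description.

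MEIS1 and MEIS3, the close relatives of MEIS2, were not called in any comparison. The brighter MEIS1 probe set read 4.11, 4.07 and 4.61 after RA, 4.09, 4.51 and 4.28 after DOX and 4.15, 4.15 and 4.03 in pluripotent cells. These arrays overlapped and stood below the array medians. The change was 0.16 after RA (95% interval -0.17 to 0.48, adjusted p = 0.77) and 0.19 after DOX (95% interval -0.14 to 0.51, adjusted p = 0.56). The other MEIS1 probe set ran from 3.12 to 3.48 over the 9 arrays. MEIS1 cooperates with HOX proteins in blood stem cells and leukaemia. The genes closest to it over the arrays were RANBP3L (0.0818), ANKS4B (0.0834), PKD1L1-AS1 (0.0955), INSYN2A (0.102) and LINC00550 (0.103). None of these was called after RA or DOX, and 6805 of the 19775 genes lay within 0.25 of MEIS1.

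The brighter MEIS3 probe set read 6.55, 6.39 and 6.34 after RA, 6.52, 6.20 and 6.33 after DOX and 6.43, 6.44 and 6.39 in pluripotent cells, with all conditions overlapping. Its change was 0.00 after RA (95% interval -0.20 to 0.21) and -0.07 after DOX (95% interval -0.28 to 0.14). MEIS3 acts in hindbrain patterning in frog and zebrafish embryos. Its other probe set ran from 5.10 to 5.54 over the 9 arrays.

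Among the PBX genes, PBX3 fell after both treatments. It read 8.53, 8.61 and 8.70 after RA, 8.42, 8.33 and 8.36 after DOX and 8.97, 9.01 and 8.99 in pluripotent cells. The 3 conditions did not overlap, with DOX lowest, RA between and pluripotent cells highest. After DOX the level was 1.53-fold lower, a log2 change of -0.62 (SE 0.07, 95% interval -0.78 to -0.46, adjusted p = 4e-04), and the call held in all 17 alternatives that gave a value. After RA the log2 change was -0.37 (SE 0.07, 95% interval -0.53 to -0.22, adjusted p = 0.018). That call was lost without RA array 1 (-0.33, adjusted p = 0.08) or 2 (-0.38, adjusted p = 0.065) and without pluripotent array 1 (-0.39, adjusted p = 0.057) or 2 (-0.36, adjusted p = 0.074), while the gene-level call (adjusted p = 0.007) held in each.

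Set directly against DOX, PBX3 after RA was higher by 0.24 (95% interval 0.08 to 0.40), with an adjusted p of 0.053 over probe sets and 0.027 at gene level. The gene-level call was lost without RA array 2 or 3, without DOX array 2 or 3, with the 2 compared groups alone and after a further quantile normalization. The spread of PBX3 between arrays of 1 condition was small: its pooled SD was 0.058, and 7.21% of probe sets had a smaller one. PBX3 works with MEIS proteins in leukaemia and is needed for breathing control in the newborn mouse. The 2 treatments share the pluripotent arrays, so the falls are not independent of each other.

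PBX3 has 1 of these RefSeq windows, on the plus strand of GRCh38.p14, shown because it held a match to the TGACAG core. RefSeq begins the gene at 125747373, before this window, so the bases before that position were not searched.
PBX3, chr9:125747933-125748182: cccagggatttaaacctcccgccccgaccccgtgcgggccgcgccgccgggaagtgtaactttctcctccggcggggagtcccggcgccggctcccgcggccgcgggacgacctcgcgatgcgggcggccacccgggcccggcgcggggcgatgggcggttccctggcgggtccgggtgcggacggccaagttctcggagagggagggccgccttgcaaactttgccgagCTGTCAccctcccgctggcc
The match stands on the other strand as CTGTCA, with its first base 20 bases before the start.

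PBX2 and PBX4 were not called, with wide intervals. The brightest PBX2 probe set read 8.02, 9.04 and 7.59 after RA, 7.96, 8.52 and 8.39 after DOX and 8.48, 8.85 and 7.88 in pluripotent cells. Array 2 was the highest of its condition each time, and the conditions overlapped. Its pooled SD of 0.541 was larger than that of 99.9% of probe sets, and its change was -0.19 after RA (95% interval -0.94 to 0.56) and -0.12 after DOX (95% interval -0.86 to 0.63). The second-brightest PBX2 probe set read 7.47, 7.74 and 7.32 after RA and 7.79, 8.04 and 7.69 in pluripotent cells. Its change after RA was -0.33 (95% interval -0.65 to -0.01, adjusted p = 0.39). The third PBX2 probe set ran from 4.95 to 5.56. The dimmest held the same deposited value, 4.86, on all 3 RA arrays, so its SD there is 0. PBX2 is the broadly expressed PBX gene, and mice without it develop normally.

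The 1 probe set of PBX4, a PBX gene known from testis, read 5.03, 4.17 and 4.61 after RA, 4.54, 5.04 and 4.91 after DOX and 4.64, 4.60 and 4.56 in pluripotent cells. The RA arrays spanned the pluripotent values and overlapped the DOX arrays. The changes were 0.00 after RA (95% interval -0.41 to 0.42) and 0.23 after DOX (95% interval -0.19 to 0.64).

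PKNOX1 was lower after DOX and not called after RA. Its brightest probe set read 7.92, 7.89 and 7.84 after RA, 7.45, 7.48 and 7.12 after DOX and 7.72, 7.84 and 7.78 in pluripotent cells. The DOX arrays lay below all others. After DOX the log2 change was -0.43 (SE 0.10, 95% interval -0.64 to -0.21, adjusted p = 0.021), or 1.35-fold lower. The call was lost with the 2 compared groups alone (adjusted p = 0.062) and without pluripotent array 1 (-0.46, adjusted p = 0.052) or 2 (-0.40, adjusted p = 0.09). After RA the change was 0.11 (95% interval -0.11 to 0.32, adjusted p = 0.77). Set directly against DOX, RA was higher by 0.53, or 1.45-fold (95% interval 0.32 to 0.75, adjusted p = 0.0042). PKNOX1 is the main partner of PBX proteins outside the MEIS genes, and mouse embryos that lack it die early.

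The 5 PKNOX1 probe sets did not move alike. The third-brightest read 6.08, 5.90 and 6.07 after DOX, below 6.25, 6.24 and 6.56 in pluripotent cells, a change of -0.33 with an adjusted p of 0.072, and 0.043 with the replicate number as a block. The second-brightest read 6.51, 6.62 and 6.67 after DOX, below 6.76, 6.92 and 6.77 in pluripotent cells, a change of -0.22 with an adjusted p of 0.22. The 2 dimmest probe sets, which stood below the array medians, changed by 0.02 and 0.05. With the mean of all 5 in place of the brightest, the gene changed by -0.18 after DOX (adjusted p = 0.08) and RA exceeded DOX by 0.15 (adjusted p = 0.13), so neither was called.

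PKNOX2, a relative of PKNOX1 with a narrower range of tissues, was not called against pluripotent cells. Its brightest probe set read 5.39, 5.59 and 5.60 after RA, 5.15, 5.36 and 5.28 after DOX and 5.40, 5.34 and 5.30 in pluripotent cells. All RA arrays lay above all DOX arrays. That difference was 0.26, with an adjusted p of 0.078 over probe sets and 0.045 at gene level, and the gene-level call was lost in 13 of 18 alternatives. These included the fits without RA array 2 or 3, without DOX array 1 or 3 and without pluripotent array 1 or 2. The second-brightest probe set also lay higher on every RA array than on every DOX array (0.22, adjusted p = 0.085), and the 2 dimmer ones overlapped.

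Markers of other cell types also moved beside the falls of PBX3 and PKNOX1 after DOX. The neural crest marker SNAI2 (1.02) and TFAP2A (0.85) rose and FOXD3 fell by 1.12, and the mean level of the 6 crest markers ran from 5.28 to 5.48 on the DOX arrays, against 5.23 to 5.36 on the pluripotent arrays. Of 8 fibroblast markers COL1A1 (1.08) and THY1 (0.33) rose, and their mean level ran from 6.36 to 6.43 on the DOX arrays, against 6.10 to 6.16 on the pluripotent arrays. NES (0.94) and ZIC1 (0.40) rose among 5 neuroectoderm markers, whose mean level ran from 5.87 to 6.03, against 5.58 to 5.76. GATA3 (1.34) rose among 6 trophoblast and amnion markers, at 4.59 to 4.81 against 4.42 to 4.47, and CXCR4 (0.31) among 5 endoderm markers, at 4.60 to 4.64 against 4.49 to 4.56. The other markers of these lists were not called. SOX10, PAX3 and MSX1 changed by between -0.06 and 0.01. The other fibroblast markers changed by between -0.08 and 0.27, and the other trophoblast and amnion markers by between -0.03 and 0.24. The other neuroectoderm markers changed by between -0.26 and 0.23, and the other endoderm markers by between -0.13 and 0.14. No mesoderm or blood marker was called. The part of these cell types in the falls of PBX3 and PKNOX1 was not tested.

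**Figure D2:**
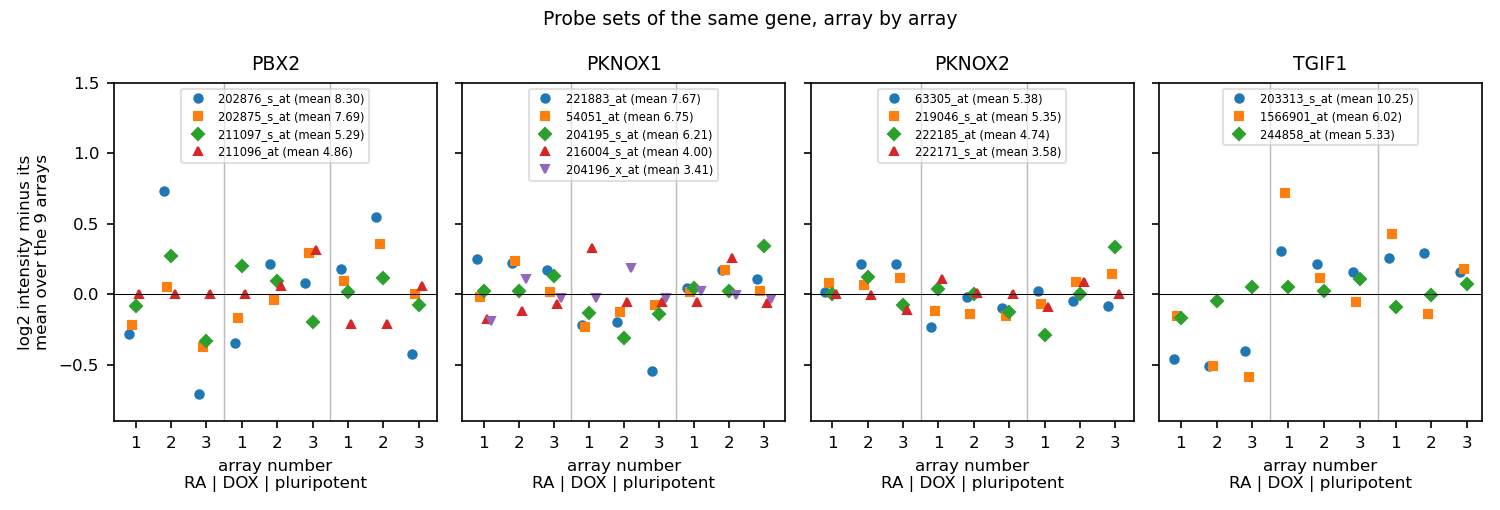
Log2 intensity of each probe set minus its mean over the 9 arrays (y axis), by array (x axis, 3 RA, 3 DOX and 3 pluripotent arrays), for the 4 genes with 3 or more probe sets. Symbols are probe sets, with their means in the legend. The brightest PBX2 probe set is highest on array 2 of each condition, 3 of 5 PKNOX1 probe sets lie low on the DOX arrays, and 2 of 3 TGIF1 probe sets lie low on the RA arrays.

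TGIF1 fell after RA and not after DOX. Its brightest probe set read 9.79, 9.73 and 9.84 after RA, 10.55, 10.46 and 10.40 after DOX and 10.50, 10.54 and 10.40 in pluripotent cells. The RA arrays lay below all others, and the other conditions overlapped. After RA the level was 1.62-fold lower, a log2 change of -0.69 (SE 0.08, 95% interval -0.86 to -0.53, adjusted p = 4e-04). After DOX it was -0.01 (adjusted p = 0.96), and RA stood below DOX by a log2 difference of -0.68 (adjusted p = 1.5e-04). Both calls held in all 16 alternatives that gave a value for this probe set. Without s_at probe sets the gene was read by its next probe set, and at gene level the change after RA (-0.57, adjusted p = 0.17) was then not called.

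The second-brightest TGIF1 probe set read 5.87, 5.51 and 5.43 after RA, 6.74, 6.14 and 5.96 after DOX and 6.45, 5.88 and 6.20 in pluripotent cells. The RA arrays again lay below both other conditions. Its change after RA was -0.57 (95% interval -1.02 to -0.12), but it scattered more, with a pooled SD of 0.316, and the adjusted p was 0.24. The dimmest changed by -0.05 after RA (95% interval -0.23 to 0.13, adjusted p = 0.89). Which transcript of TGIF1 each probe set reads is not given in the sources used here.

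RefSeq lists 7 windows for TGIF1 on the plus strand of GRCh38.p14, of which 2 overlap each other. The 2 printed are those with a TGACAG match, the core that TGIF1 itself binds.
TGIF1 window 2, chr18:3447292-3447541: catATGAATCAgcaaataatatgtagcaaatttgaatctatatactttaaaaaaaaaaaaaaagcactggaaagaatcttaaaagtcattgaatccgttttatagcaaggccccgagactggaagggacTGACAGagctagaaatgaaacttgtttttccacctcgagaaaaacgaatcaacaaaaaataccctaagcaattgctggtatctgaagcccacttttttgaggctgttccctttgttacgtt
TGIF1 window 6, chr18:3449922-3450171: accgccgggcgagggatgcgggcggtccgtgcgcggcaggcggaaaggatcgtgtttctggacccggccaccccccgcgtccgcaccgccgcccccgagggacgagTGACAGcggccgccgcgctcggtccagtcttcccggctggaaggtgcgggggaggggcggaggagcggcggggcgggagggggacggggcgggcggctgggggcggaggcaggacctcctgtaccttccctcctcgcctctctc
The TGACAG match begins 121 bases before the start in window 2 and 144 bases before it in window 6. Window 2 also held a TGATNNAT match, on the other strand, 247 bases before the start, and it was the 1 family window with a p53 half-site.

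For 8 of the 9 genes, 16 windows were found, and both strands were searched. PKNOX2 had none. TGACAG was in 3 of the 16 windows (PBX3 and the printed pair of TGIF1), against 13% of 35114 RefSeq windows of the same length. TGATNNAT was in 3 of 16 (MEIS2 window 2 and TGIF1 windows 2 and 7), against 6.47%. The retinoid repeat spaced by 5 was in 0 of 16, against 0.074%, and the one spaced by 2 in 0 of 16, against 0.0313%. A p53 half-site was in 1 of 16, against 5.57%. No 2 matches overlapped. Windows 4 and 5 of TGIF1 overlap and share sequence.

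Over the 23 probe sets, RA gave 1 called higher and 2 called lower, against pluripotent cells, where 2.95% of all probe sets were called. These 3, 13% of the family, were MEIS2, PBX3 and TGIF1. DOX gave 0 higher and 2 lower (PBX3 and PKNOX1), 8.7% of the family, against 7.71% of all probe sets. At an unadjusted p under 0.05, limma took 5 of the 23 after RA, against 12.5% of all probe sets, 7 after DOX, against 19.4%, and 9 for RA against DOX, against 23.5%, in either direction. RA against DOX gave 2 higher (MEIS2 and PKNOX1) and 1 lower (TGIF1), 13% against 12.2% of all. The family's shares after DOX and for RA against DOX were thus near those of all probe sets.

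Arrays of the 2 conditions did not overlap for 6 of 23 probe sets after RA, against 16.7% of all probe sets, and for 6 after DOX, against 21.3%. Between RA and DOX this held for 10, against 26.4%. The median change of the 23 was -0.00 after RA, -0.01 after DOX and -0.07 for RA against DOX, and that of all probe sets was 0.00, 0.01 and -0.01. At gene level RA called 1 of 9 higher and 2 lower, against 3.16% and 3.32% of all genes. DOX called 1 higher and 2 lower, against 5.67% and 9.6%. RA against DOX called 4 higher and 1 lower, against 12.6% and 8.62%. Of the 23 probe sets, 18 had a mean above the median probe set.

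**Figure D3:**
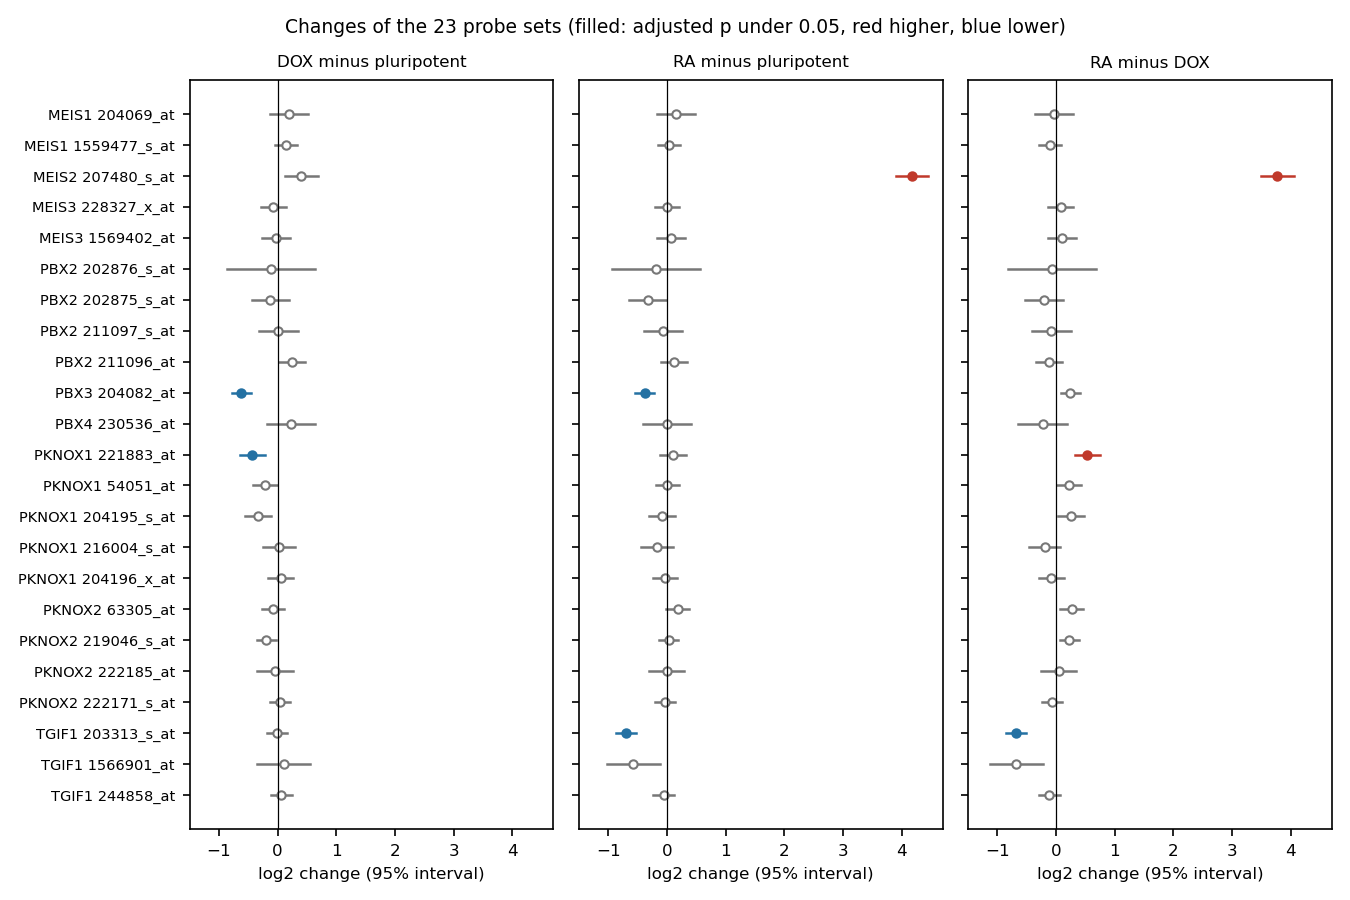
Log2 change of each of the 23 probe sets (x axis) with its 95% interval, for DOX minus pluripotent, RA minus pluripotent and RA minus DOX. Rows are probe sets, filled points have an adjusted p under 0.05, red marks higher and blue marks lower. MEIS2 lies at 4.18 after RA, every other probe set lies between -0.69 and 0.18 there, and the interval of the brightest PBX2 probe set is the widest.

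Other TALE genes gave 2 of 8 measured genes higher and 0 lower after RA at gene level, against 3.16% and 3.32% of all genes. The shares of all genes called higher and lower were 5.67% and 9.6% after DOX. For RA against DOX they were 12.6% and 8.62%. The counts of every list, and of the neighbouring genes, are to be read beside these shares. IRX3, an Iroquois factor of neural patterning, read 7.52, 7.44 and 7.47 after RA, against 6.73, 6.88 and 6.33 in pluripotent cells, a change of 0.83 (adjusted p = 0.0017). TGIF2, the paralog of TGIF1, went the opposite way to it. TGIF2 read 8.68, 8.79 and 8.50 after RA, against 8.24, 8.37 and 8.21 in pluripotent cells, a change of 0.39 (adjusted p = 0.032). This call was lost in 8 of 17 alternatives, among them those without RA array 1 or 2 or pluripotent array 1 or 3. After DOX limma called 0 of the 8 in either direction, and 1 had an unadjusted p under 0.05. With the replicate number as a block 1 was called, IRX1, at -0.47 (adjusted p = 0.046, against 0.081 without the block). IRX1 was also called without DOX array 1 (-0.61, adjusted p = 0.032), without pluripotent array 3 (-0.65, adjusted p = 0.01) and with array weights. RA against DOX gave 3 higher: IRX3 (1.04), IRX1 (0.57, adjusted p = 0.029) and TGIF2 (0.46). IRX1 lost its call without any 1 of the RA arrays and without DOX array 2 or 3. The median change of the 8 was 0.06 after RA and -0.01 after DOX, and that of all genes was -0.00 after both.

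HOX genes of paralog groups 1 to 5, which pair with PBX in the hindbrain, gave 1 of 10 measured genes higher after RA. This was HOXB2, at 5.87, 6.21 and 5.42 after RA, 4.62, 4.97 and 4.78 after DOX and 4.31, 4.31 and 4.04 in pluripotent cells. The 3 conditions did not overlap, and the change after RA was 1.61 (adjusted p = 1.9e-04). After DOX HOXB2 was also the 1 gene called, at 0.57 (adjusted p = 0.048), a call lost in 11 of 18 alternatives, 7 of them fits without 1 array. The median of the 10 was 0.15 after RA and also 0.15 after DOX. Of 18 HOX genes of paralog groups 6 to 13, those of the trunk and limbs, limma called 0 after RA, with 0 at an unadjusted p under 0.05. Only 3 of the 18 had a probe set with a mean above the median probe set, which limits what can be seen. No HOXA gene is among the 18. After DOX, where 5.67% of all genes were called higher, 2 of the 18 were higher. They were HOXB6 (0.55, adjusted p = 0.018), lost without DOX array 1 or 2 or pluripotent array 2, and HOXC6 (0.46, adjusted p = 0.0056), which kept its call in all 17 alternatives that gave a value. RA against DOX called 3 of the 18 lower, HOXC6 (-0.56), HOXB6 (-0.52) and HOXB7 (-0.36). HOXB6 and HOXB7 each lost this call without RA array 2 or DOX array 1 or 2 and with the mean of a gene's probe sets. In every condition the means of HOXB6 and HOXB7 stood below 4.66, the mean of the median probe set. The median of the 18 was 0.03 after RA and 0.16 after DOX.

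Retinoid receptors and response genes gave 5 of 13 higher and 1 lower after RA, against 3.16% and 3.32% of all genes. The receptor gene RARB rose by 2.21 (adjusted p = 6.3e-06), at 6.50, 6.56 and 6.36 after RA, against 3.89, 4.54 and 4.37 in pluripotent cells. The binding protein gene CRABP2 (1.52) and NRIP1 (1.11), a corepressor of nuclear receptors, rose beside CYP26A1. The fifth was DHRS3, a retinaldehyde reductase (0.70), named after its values were seen. The gene lower after RA was RXRA, the partner of retinoic acid receptors, at -0.42 (adjusted p = 0.021). It was named after its values were seen, and its call was lost in 5 of 17 alternatives, among them those without RA array 1 or 3 or pluripotent array 2 or 3. The median of the 13 was 0.17 after RA and 0.04 after DOX, where 1 gene, STRA6, a receptor for the retinol carrier, was called (0.28, adjusted p = 0.043). STRA6, also named after its values were seen, lost its call in 11 of 18 alternatives, 7 of them fits without 1 array.

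The SMAD2/3 pathway and the corepressors that TGIF1 works with gave 1 of 13 higher and 3 lower after RA, and 3 higher and 3 lower after DOX. LEFTY1, a NODAL antagonist, read 8.44, 8.30 and 8.51 after RA, against 10.82, 10.80 and 11.52 in pluripotent cells, a change of -2.63 (adjusted p = 3.5e-06). NODAL, the ligand, changed by -1.31 after RA and by 0.90 after DOX. CER1, another secreted antagonist, changed by -1.05 after RA and by 1.97 after DOX. SMAD3, an effector that TGIF1 represses, was higher after DOX by 1.27 (adjusted p = 5.2e-06). After RA it stood at -0.33 (adjusted p = 0.059) and was called in 5 of 18 alternatives, among them those without DOX array 3 (adjusted p = 0.046) or RA array 2 (-0.40, adjusted p = 0.043). The corepressor gene SIN3A, named after its values were seen, read 7.84, 7.64 and 7.60 after DOX, against 8.48, 8.68 and 8.46 in pluripotent cells, a change of -0.85 (adjusted p = 1.2e-04). SMAD4, the common partner of SMAD2 and SMAD3 (-0.61), and the corepressor gene CTBP2 (-0.29) were the others lower after DOX. HDAC1, a histone deacetylase, was the 1 higher after RA (0.31, adjusted p = 0.023). These 3 were also named after their values were seen. The call of CTBP2 was lost without DOX array 3 or pluripotent array 1 or 2, and that of HDAC1 without RA array 1 or 2 or pluripotent array 1, 2 or 3. The median of the 13 was -0.12 after RA and -0.03 after DOX.

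Of 13 other binding partners of PBX or MEIS, 2 were lower after RA, and after DOX limma called 0 in either direction, with 3 at an unadjusted p under 0.05. OTX2, a head homeobox factor, read 8.83, 8.95 and 9.62 after RA, against 10.70, 10.58 and 10.81 in pluripotent cells, a change of -1.56 (adjusted p = 2.2e-04). KLF4, a factor of the naive pluripotent state that binds PBX and MEIS proteins, changed by -0.58 (adjusted p = 0.014), a call lost without RA array 1 or pluripotent array 1 or 2. The median of the 13 was 0.02 after RA and 0.03 after DOX.

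**Figure D4:**
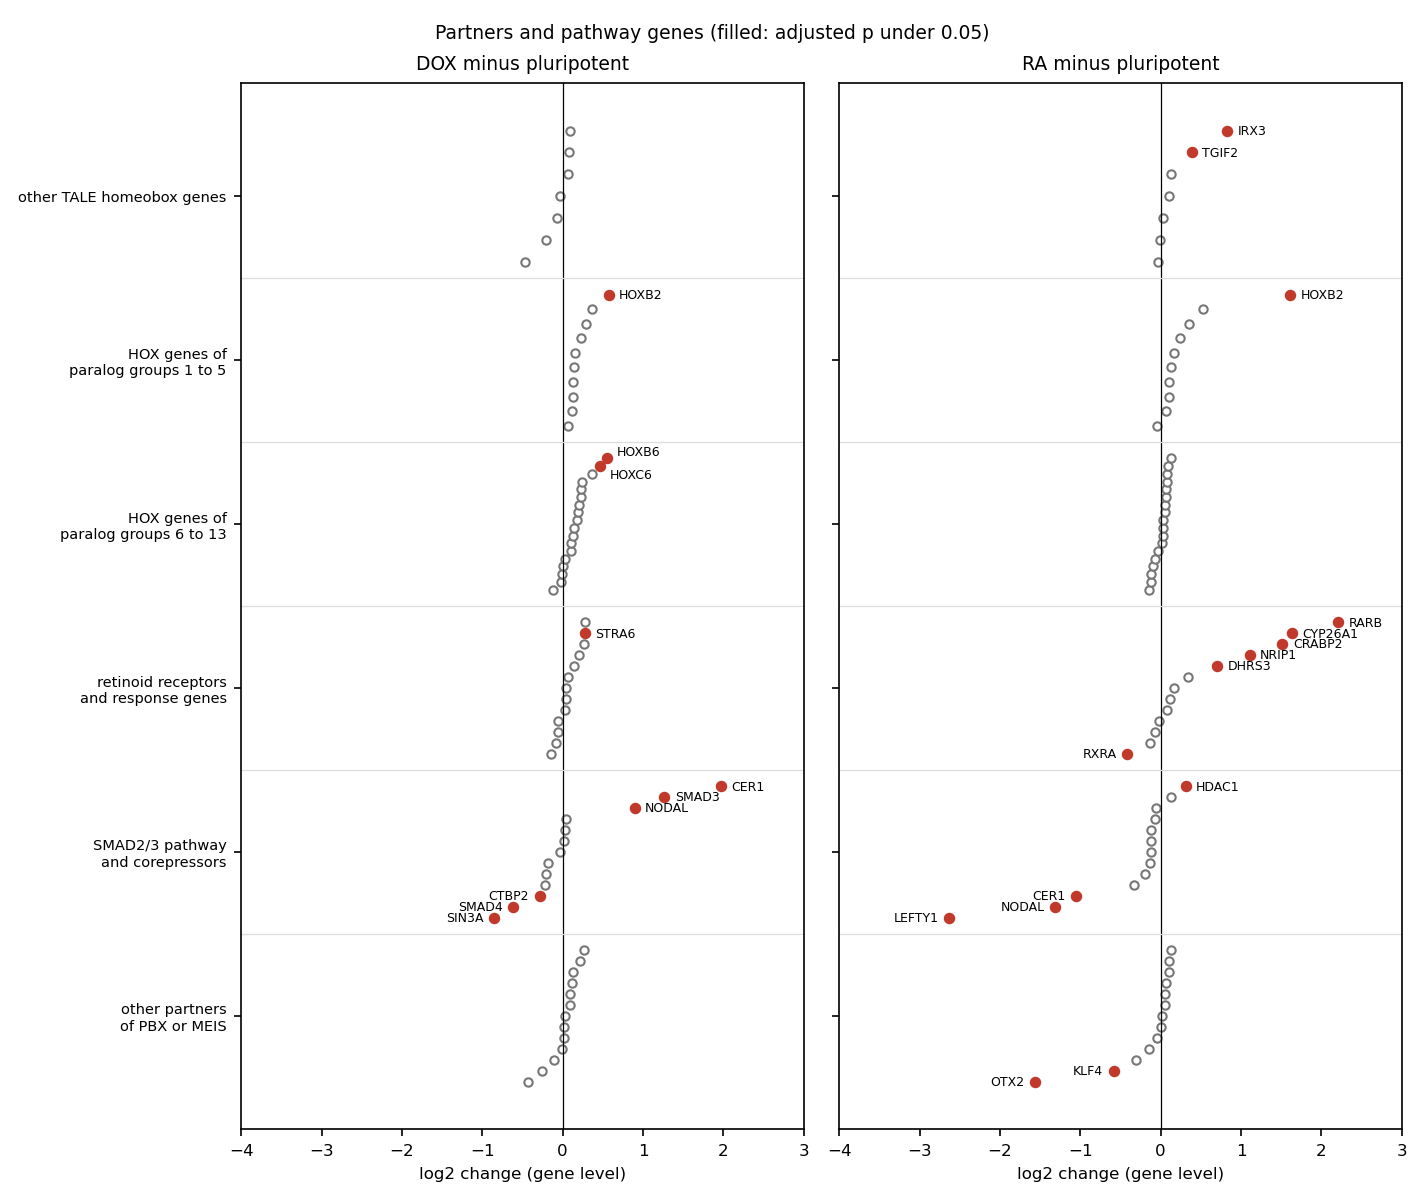
Log2 change at gene level (x axis) for DOX minus pluripotent and RA minus pluripotent, for the measured genes of 6 lists of relatives and partners (rows). Points are genes, ordered by size within a list, and the filled, named ones have an adjusted p under 0.05. The most points are named among retinoid genes after RA, with RARB at 2.21, and among SMAD2/3 genes after both treatments, with CER1 at 1.97 after DOX and LEFTY1 at -2.63 after RA. Of the other TALE genes 1 measured gene, which was not called, is not drawn.

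The nearest measured gene on each side of each family gene in RefSeq (GRCh38.p14) was also read, 18 genes in all. The genes next to MEIS2 (LOC145845 and TMCO5A), PBX3 and MEIS1 were not called in any comparison. LOC145845 lies 2.67 kb from MEIS2 and TMCO5A 833 kb from it. Both read below the array medians on every array. So did PBX3-DT and LOC101929116 beside PBX3 and LINC01798 beside MEIS1. Such dim probe sets limit what can be seen. After RA 1 neighbour was higher and 1 lower, against 3.16% and 3.32% of all genes. FEZ1, a kinesin adaptor of growing axons, lies beside PKNOX2 and read 8.74, 8.88 and 9.20 after RA, against 10.15, 10.18 and 10.18 in pluripotent cells, a change of -1.23 (adjusted p = 3.5e-05). ERVH48-1, an endogenous retroviral envelope gene beside PKNOX1, changed by 0.47 (adjusted p = 0.033). After DOX limma called 0 higher and 1 lower, with 3 at an unadjusted p under 0.05 in either direction. The 1 lower was TMEM218, a cilium protein gene beside PKNOX2, at -0.48 (adjusted p = 0.003). RA against DOX called ERVH48-1 higher, and FEZ1 and MYL12B, a myosin light chain gene beside TGIF1 (-0.32), lower. These neighbours were named after their values were seen.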

How the data were processed

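The authors deposited log2 values per probe set for 9 arrays, made with RMA and the package affy per the submitters' processing notes, with no version stated there. RMA subtracts background, gives all arrays 1 distribution by quantiles and summarises probes by median polish, so a shift shared by most genes is removed and fold changes of dim probe sets are compressed. The log2 scale was read from the values, 2.36 to 14.8. No detection calls were used, and the number of arrays limits the precision.

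Samples were grouped by their labels. Of 54675 probe sets, 62 controls were left out. The platform annotation gave 1 gene for 41091, several for 1801 and none for 11721. A fit with 3 group means on all 9 arrays used lmFit and eBayes of limma 3.58.1 in R 4.3.3 (6 residual and 4.64 prior degrees of freedom). It was also run on 1 probe set per gene. The code was tested on simulated data. The members and lists were chosen with earlier results of these data known. Named genes are all members, up to 4 called genes with the largest absolute change per list, the 5 genes nearest to MEIS1 and to MEIS2, and the treatment checks CDKN1A and CYP26A1. Others are said to be chosen after their values were seen. Some items are not reported here.

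The labels number the arrays 1 to 3 in each condition. Deviations from the group means correlated between arrays of 1 number by 0.168, 0.103 and 0.103 for DOX and pluripotent arrays, all over 0.1. The numbers were therefore taken as pairs there, but only in the replicate block, which is an alternative. The reported fit, with its p-values and counts, does not use the pairs in any comparison. For RA and pluripotent arrays they correlated by -0.0507, 0.275 and 0.208 and for RA and DOX arrays by 0.0608, 0.103 and -0.0702. Alternatives were a replicate block, leaving out each array, dropping x_at and s_at probe sets, probe sets above the median level only, a trended and robust spread, the 2 compared groups only, a further quantile normalization, centring, array weights and the mean of a gene's probe sets. Upstream windows came from a RefSeq table of GRCh38.p14.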

Additional observations from a re-analysis of the deposited data

How the results depend on the processing

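No called value of the family changed direction. The probe sets of MEIS2 and of TGIF1 (its brightest) after RA and of PBX3 after DOX kept their calls in every alternative that gave a value. Over single probe sets and genes, 1546 alternative values kept their side of the threshold, 16 came to pass it and 40 no longer did. MEIS2 has no value without s_at probe sets, and MEIS1 has none above the median level. The cause of the following moves was not tested, except that the first settings test fewer probe sets. The first setting also drops, by their suffix, the only probe set of MEIS2 and the brightest of TGIF1. It likewise drops the probe sets read at gene level for HOXB6, HOXB7, HOXC6, STRA6, TGIF2 and KLF4.

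Without x_at or s_at probe sets, called probe sets were 2602 after DOX (4211 in the reported fit), 942 after RA (1611) and 4096 for RA against DOX (6684). Called family probe sets were then 1 after RA and 1 for RA against DOX, called family genes 1 and 3, and list counts 0 for late HOX and 0 for retinoid genes after DOX, 1 for other TALE genes and 1 for other partners after RA, and 0 for late HOX genes and 1 for other partners for RA against DOX. Above the median level, 7 family probe sets were called for RA against DOX, and 1 late HOX gene after DOX and 1 for RA against DOX. With the 2 compared groups alone, 1 family probe set was called after DOX and 3 family genes for RA against DOX. A trended and robust spread gave 5 family probe sets for RA against DOX, and a further quantile normalization 3 family genes. The mean of all probe sets gave 3 family genes for RA against DOX, 2 early HOX genes in each comparison, 1 other TALE gene after RA and 1 late HOX gene for RA against DOX.

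The replicate block gave 1 other TALE gene after DOX and 1 after RA. With it, 3 family probe sets were called after DOX, 4 after RA and 4 for RA against DOX. After RA, where the numbers were not taken as pairs, the added probe set was the second-brightest of TGIF1 (adjusted p = 0.027). It was also called for RA against DOX (adjusted p = 0.0038). Deviations of same-numbered arrays did not all correlate above 0.1 there.

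Leaving out 1 array at a time gave 2597 to 4748 called probe sets after DOX, 1039 to 1524 after RA and 4823 to 7089 for RA against DOX. In that order of comparisons, called family probe sets ran from 1 to 3, from 2 to 3 and from 3 to 4, and called family genes from 2 to 3, 3 to 3 and 3 to 5. Other TALE genes ran from 0 to 2, 1 to 2 and 2 to 3, early HOX genes from 0 to 1, 1 to 2 and 1 to 2, and late HOX genes from 1 to 2, 0 to 0 and 1 to 3. Retinoid genes ran from 0 to 1, 5 to 7 and 5 to 6, SMAD2/3 genes from 5 to 7, 3 to 5 and 6 to 8, and other partners from 0 to 1, 1 to 2 and 2 to 3. With 3 arrays a group, an adjusted p near the threshold can be decided by 1 array, and dim probe sets such as those of MEIS1 limit what can be seen.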

Other observations

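Several family probe sets held exactly the same deposited value on 3 or more of the 9 arrays, often in different conditions. This was so for 7 of the 23 family probe sets (30.4%) and for 14291 of all 54613 (26.2%). They were 1 of 2 for MEIS3, 1 of 4 for PBX2, 3 of 5 for PKNOX1 and 2 of 4 for PKNOX2. The most arrays with 1 value was 4, for the dimmest probe set of PBX2.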
